A study of Mus musculus with 4 samples.

Results

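The accessibility of 8 immediate early transcription regulators was followed through an ATAC-seq data set of mouse subcutaneous white fat. They were taken by name from the deposited gene table, which links open regions to genes, and all 8 (Egr1, Klf10, Fos, Jun, Junb, Jund, Atf3 and Ier2) were among its 11993 genes. The table linked them to 16 of the 12477 merged open regions of the series. ATAC-seq uses the transposase Tn5 to cut and tag accessible DNA, so a peak marks chromatin open to the enzyme and is not a measure of transcription. The series held 4 libraries of wild-type mice, 2 from females and 2 from males, made from frozen fat ground to powder, and set the sexes against each other. The sources used here give no age, strain or treatment. Nothing in the labels says that samples of the same sex were different animals, and the p-values then measure only the spread between these samples, which may be technical.

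Immediate early genes are switched on within minutes of a stimulus without new protein synthesis, by factors already in the nucleus such as SRF with its ternary complex partners and CREB. Their products are mostly transcription factors that set off later waves of expression. Fos and Jun proteins pair through leucine zippers to form AP-1, Atf3 belongs to the same basic leucine zipper class, and Egr1 and Klf10 bind GC-rich DNA through zinc fingers. In fat, several of these genes are known to rise early when precursor cells are set on the path to adipocytes.

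The values were peak heights, the largest number of overlapping sequence tags in a region, scaled by the authors with a factor per library and averaged over the regions linked to a gene. In the order female 1, female 2, male 1, male 2, which is kept below wherever 4 values stand together, the median height of all genes was 38.0, 30.2, 24.0 and 14.7, and called intervals numbered 10238, 8022, 5484 and 4049. Male 2 also had wider intervals, with a median of 284 bp against 160 to 171 bp in the other libraries. Read totals are unknown. In the 4 members with a single region, the heights rested on 21 to 96 overlapping tags before scaling. Of 9 markers of adipocytes, 5 had a linked region (Pparg, Lipe, Cidec, Retn and Cfd; summed heights of 187.5, 161.9, 93.7 and 59.8), while Adipoq, Plin1, Fabp4 and Lep were not in the table.

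The promoters of 4 members are shown because they differ in whether an open region was called there. Each sequence is the 250 bases before the gene start, read 5′ to 3′ on the gene's strand, from RefSeq (GRCm38.p6, the assembly of mm10), and capitals mark matches on either strand to the short cAMP response element TGACG, to TGACATCA, to TATAAA or to CCAAT.
Atf3 (chr1:191183334-191183583, minus strand): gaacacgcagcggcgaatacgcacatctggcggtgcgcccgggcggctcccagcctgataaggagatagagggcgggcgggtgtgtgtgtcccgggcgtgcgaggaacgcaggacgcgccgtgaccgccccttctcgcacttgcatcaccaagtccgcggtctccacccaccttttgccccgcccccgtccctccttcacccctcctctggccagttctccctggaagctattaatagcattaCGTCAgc
Jun (chr4:95052223-95052472, minus strand): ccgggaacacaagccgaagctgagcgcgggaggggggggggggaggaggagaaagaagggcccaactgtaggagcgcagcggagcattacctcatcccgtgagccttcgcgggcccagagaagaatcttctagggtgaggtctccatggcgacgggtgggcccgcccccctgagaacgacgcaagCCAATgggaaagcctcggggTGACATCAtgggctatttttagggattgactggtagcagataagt
Junb (chr8:84978749-84978998, minus strand): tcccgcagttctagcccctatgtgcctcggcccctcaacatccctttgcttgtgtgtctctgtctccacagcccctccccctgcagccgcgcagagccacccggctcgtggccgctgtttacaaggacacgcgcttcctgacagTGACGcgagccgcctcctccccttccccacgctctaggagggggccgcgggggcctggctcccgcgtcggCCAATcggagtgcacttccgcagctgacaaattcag
Fos (chr12:85473640-85473889, plus strand): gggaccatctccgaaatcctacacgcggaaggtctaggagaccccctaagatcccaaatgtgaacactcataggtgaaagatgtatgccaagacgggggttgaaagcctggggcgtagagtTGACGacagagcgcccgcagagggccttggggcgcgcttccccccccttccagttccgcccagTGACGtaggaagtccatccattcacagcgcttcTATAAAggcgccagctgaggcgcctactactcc
All 250 bases of Atf3 and of Jun lay inside a merged region, 117 bases of Junb did, and none of Fos. TGACG, at which CREB and ATF proteins are known to bind, matched 3 to 7 bp before the start of Atf3, 102 to 106 bp before that of Junb, and at 125 to 129 and 62 to 66 bp before that of Fos. It occurred in 17.8% of 32851 promoter windows of this length, so that a match is common. Jun held no TGACG but TGACATCA at 38 to 45 bp before its start, a motif added to the search after the sequences were seen and held by 2.93% of windows. TATAAA, the TATA box, matched in Fos at 28 to 33 bp and was in 12.4% of windows, and CCAAT matched in Jun at 61 to 65 bp and in Junb at 32 to 36 bp, against 33.8% of windows. None of the 4 windows held the full element TGACGTCA (in 1.55% of all windows) or the AP-1 motif TGANTCA (6.75%). None held the CArG box bound by SRF (1.47%) or the EGR motif GCGNGGGCG (4.7%). Sites outside these 250 bases, such as farther upstream, were not searched. GGGCGG boxes were found 5 times in Atf3 and 1 time each in Jun and Fos, against 32.7% of windows with at least 1. GC content was 65.2% in Atf3, 61.2% in Jun, 66.4% in Junb and 58.4% in Fos, above the median of 52.4% over all windows. The Fos window ends at 85473889, before the RefSeq start, while the deposited start of Fos is 85473901. Its motif positions therefore do not count from the deposited start. The RefSeq table also held Jund, whose window at the listed start had a GC content of 47.6%, no base in a merged region and no match to any of these motifs. Egr1, Klf10 and Ier2 had no entry.

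**Figure D1:**
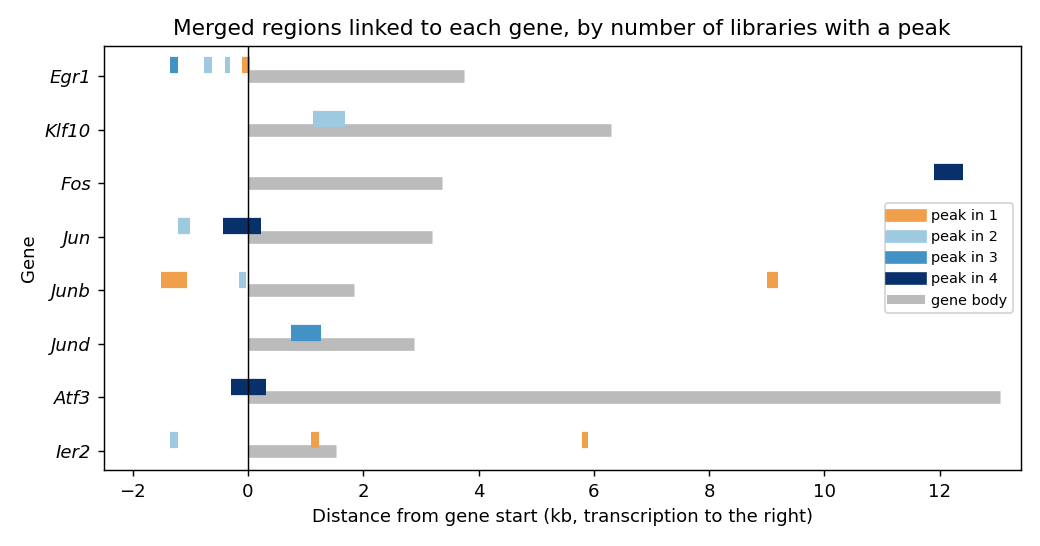
Position of the 16 merged regions relative to the start of the gene they are linked to (x axis, kb, with transcription to the right), coloured by the number of libraries with a called peak; grey bars are gene bodies. The regions with a called peak in all 4 libraries lie at the starts of Jun and Atf3 and 12 kb from the start of Fos. Egr1 has 4 narrow regions before or at its start.

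Egr1, a zinc finger factor induced by growth factors and stress, had the most regions of the 8 genes. It is GeneID 13653 (chromosome 18, mm10, 34861207 to 34864956, plus strand). Its 4 regions lay within 1388 bp just before or at the start, at 34859847 to 34859985, 34860446 to 34860579, 34860800 to 34860902 and 34861111 to 34861234, and none was linked to another gene. Of all genes 2.01% had 4 or more regions, and 9.3% had 3 or more, as did Egr1, Junb and Ier2. The region farthest upstream had summits of 64.0, 52.6 and 38.9 in female 1, female 2 and male 1. The next ones had 64.0 and 50.1, then 69.0 and 54.3, in the females. The region at the start had a called summit, of 61.0, in female 1 alone. In female 2 the height of that region can have been at most 45.2. No peak was called at Egr1 in male 2. The mean height over the 4 regions was 64.5, 50.6, 40.5 and 10.6. The females and male 1 were high, male 2 was low, and the sexes did not overlap. Egr1 stood at percentiles 89.6, 88.7 and 90.4 of all genes in the first 3 libraries and at 27.3 in male 2. By thresholds chosen after these values were seen, 1093 genes (9.11%) lay at or above the 85th percentile in those 3 libraries, and 9 of all genes (0.075%) did so and lay below the 30th in male 2. In male 1 the 3 regions without a called peak had a mean height of at most 41.0, a limit close to the 38.9 of the region that was called.

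Klf10, a Krüppel-like repressor induced by TGF-beta, had the highest single value. Its region lay inside the gene (GeneID 21847, chromosome 15, 38299028 to 38299588, 561 bp, gene 38294413 to 38300707 on the minus strand), with summits 1283 and 1315 bp from the start, and was linked to no other gene. The height was 96.0, 53.4, 33.9 and 21.3. Female 1 stood far above the other libraries, the sexes did not overlap, and peaks were called in the females and not in the males. Of all genes, 11.7% had peaks in both females and neither male. The heights without a called peak were still at the 80.1 percentile in male 1 and the 76.6 percentile in male 2, so that the region was among the higher ones of each male library.

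Fos, the partner of Jun in AP-1, was linked to a region outside the gene. The region (chromosome 12, 85485800 to 85486296, 497 bp) lay 8531 bp past the end of the gene (GeneID 14281, 85473901 to 85477269, plus strand), with summits 11923 to 12371 bp from its start. No other gene was linked to it, and peaks were called in all 4 libraries. The height was 45.0, 31.2, 26.2 and 15.4, lower in each male than in each female, and stood close to the middle of the table at percentiles of 53.4 to 65.2. No merged region overlapped the promoter shown above or the gene body, which says that no peak was called there and not that it was closed.

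Jun, the AP-1 subunit that can also pair with itself, had an open start in every library. The region at its start (chromosome 4, 95051995 to 95052663, 669 bp, the widest of the 16) had summits of 55.0, 58.4, 44.5 and 35.2. A narrower region of 211 bp farther upstream (95053230 to 95053440, summits at -1090 and -1122 bp from the start) had peaks of 48.0 and 45.2 in the females and none in the males, where its height can have been at most 17.7 and 19.1. Both regions were linked also to the predicted gene Gm12703, and the values cannot be assigned to one of the genes. The mean height of Jun (GeneID 16476, 95049036 to 95052222, minus strand) was 51.5, 51.8, 31.1 and 27.2. The females were nearly equal and the males lower without overlap, whereas female 1 was the highest library for the other 7 members and for 79.7% of all genes (female 2 for 15.0%). Male 2 was the lowest for 8 of 8 members and for 83.9% of all genes.

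Junb, a Jun relative that often tempers the activity of Jun, was linked to 3 regions, each shared with other genes. The region at its start (chromosome 8, 84978789 to 84978905, linked also to Prdx2 and LOC101055733) had called peaks in the females. A region upstream (84979803 to 84980250, also Prdx2) and a region 9148 bp downstream of the start (84969552 to 84969750, also Prdx2, Rnaseh2a and LOC101055733) had called peaks in male 2 alone. As these genes average over overlapping sets of regions, the height of each region could be solved from the table. At the start the heights were 47.0, 43.6, 31.1 and 11.0. At the upstream region they were 61.0, 25.5, 31.8 and 27.2. Female 1 and male 1 were thus higher there than male 2, the library with the called peak. At the downstream region the heights were 24.0, 19.7, 19.1 and 21.3, the narrowest range of the 8 solved regions. The mean for Junb (GeneID 16477, 84976909 to 84978748, minus strand) was 44.0, 29.6, 27.3 and 19.8, with female 2 and male 1 nearly equal.

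Jund, the Jun relative known for steady expression, had a single region inside the gene (chromosome 8, 70698488 to 70698999, 512 bp, GeneID 16478, gene 70697739 to 70700616 on the plus strand). Summits lay 789 to 1205 bp from the listed start, and the region was linked also to the predicted gene Gm16486. The height was 63.0, 45.2, 30.4 and 25.7, and the sexes did not overlap. A peak was called in male 2 and not in male 1, although the height in male 1 was the greater.

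Atf3, a stress-induced factor of the ATF family, had the smallest difference between the sexes among the 8. Its region (chromosome 1, 191183021 to 191183628, 608 bp, GeneID 11910, gene 191170296 to 191183333 on the minus strand) covered the start, was linked to no other gene and had peaks in all 4 libraries. The height was 53.0, 37.0, 33.2 and 28.6, with female 1 well above the rest and female 2 just above male 1. Its percentile was 78.2, 68.3, 78.7 and 90.2, the last being the highest of any member in male 2.

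Ier2, a nuclear regulator of the immediate early class, had 3 narrow regions of 103 to 148 bp, none with a peak in more than 2 libraries. The upstream region (chromosome 8, 84664058 to 84664205) had summits of 77.0 in female 1 and 38.9 in male 1, and the region inside the gene (84661623 to 84661756) 55.0 in female 1, and both were linked also to Nacc1. The region downstream (84656953 to 84657055) was called in female 2 alone, with 30.4, while its solved heights were 38.0, 30.4, 24.0 and 8.81. The mean for Ier2 (GeneID 15936, 84661331 to 84662852, minus strand) was 56.7, 29.9, 31.6 and 12.5. Male 1 lay above female 2, so that this was the member whose sexes overlapped. The starts of Ier2 and Junb are 315896 bp apart.

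**Figure D2:**
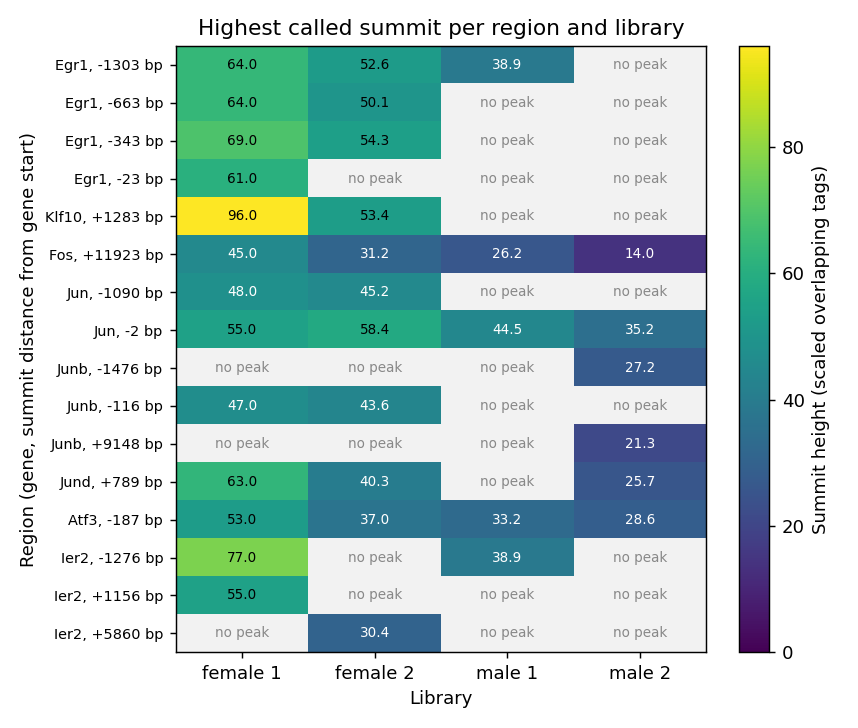
Highest called summit (colour and number, scaled overlapping tags) for each of the 16 regions (rows, named by gene and summit distance from the gene start) in each library (columns); grey cells had no called peak. Peaks of female 1 cover 13 regions and those of female 2 cover 11, against 5 in male 1 and 6 in male 2. Over all 12477 merged regions the called intervals also were fewer in the males, at 10238, 8022, 5484 and 4049 in the same order.

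The members shared few features of place. A summit lay within 500 bp of the start for 4 of 8 (Egr1, Jun, Junb and Atf3), against 66.9% of all genes. Peaks in both females were called for 8 of 8, against 70.5% of all genes, and peaks in all 4 libraries for 3 of 8 (Fos, Jun and Atf3), against 35.9%. Over regions, 3 of 16 had a peak in all 4 libraries (19.9% of all merged regions), 2 in 3, 6 in 2 and 5 in a single library (40.7%). Regions of at least 400 bp numbered 6 of 16, against 15.0% of all regions, and included the 3 called in every library. The other 10 were 103 to 211 bp wide. Of the 16 regions 8 were linked also to another gene, against 42.6% of linked regions, and for 3 of 8 genes (Jun, Junb and Jund) every region was, against 59.2% of all genes. With so few members these shares are descriptions and were not tested.

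A region without a called peak could still have a large height. Single heights could be had for 8 regions in 4 libraries, and all 32 were whole multiples of the library's scaling step, within 0.05 of a tag. Of the 18 with a called peak, 16 equalled the called summit within 0.01 and the other 2 lay above it. For Klf10, Fos, Jund and Atf3, with 1 region each, the deposited height was that of the region. The step was itself found from genes with 1 region. Only the heights at Junb and Ier2 were solved from shared regions. The 14 single heights without a called peak ranged from 8.81 at Ier2 in male 2 to 61.0 at the upstream Junb region in female 1. Peak presence between the sexes is therefore read here beside the heights.

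**Figure D3:**
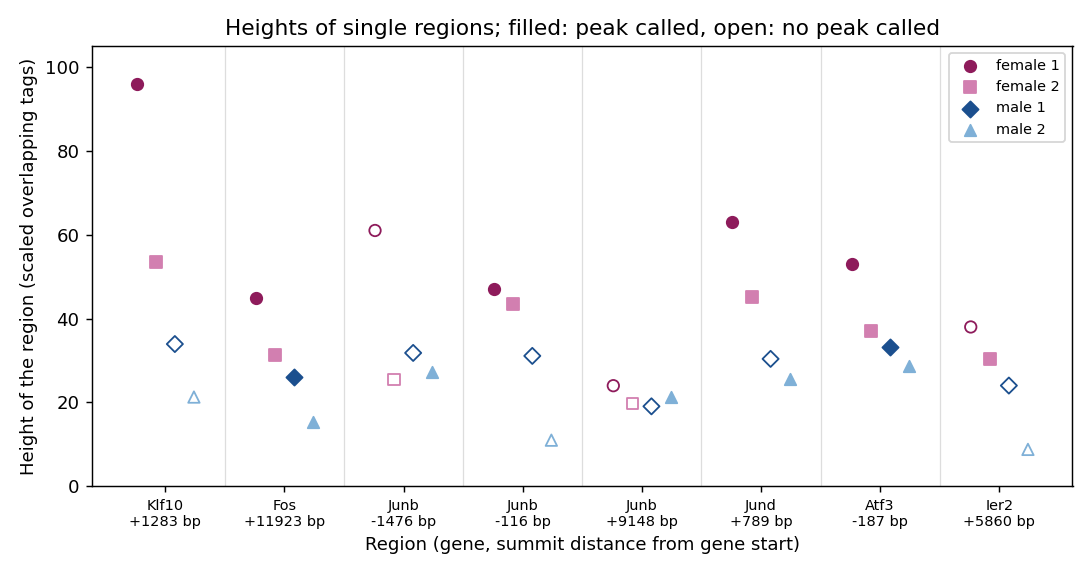
Height (y axis, scaled overlapping tags) of the 8 regions whose single heights could be solved, in each library; filled symbols had a called peak and open symbols did not. The open circle at 61.0 is the upstream Junb region in female 1, above the filled triangle at 27.2 for the called peak of male 2.

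In rank within a library the 8 genes stood above the middle of the table. The median percentile of the members was 80.2, 75.4, 74.4 and 74.4, and their median height was 1.44, 1.36, 1.30 and 1.40 times that of all genes. Averaged over the libraries, Klf10 ranked highest at 86.7, followed by Jund at 82.4, Jun at 82.1, Atf3 at 78.9, Egr1 at 74.0, Junb at 61.5, Ier2 at 61.0 and Fos at 57.5. The percentiles of Jund ranged from 71.9 to 88.5 over the libraries and those of Jun from 73.9 to 89.9, and neighbours in this order did not differ beyond such spreads. The widest ranges were those of Egr1 (27.3 to 90.4) and Ier2 (37.5 to 82.1).

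**Figure D4:**
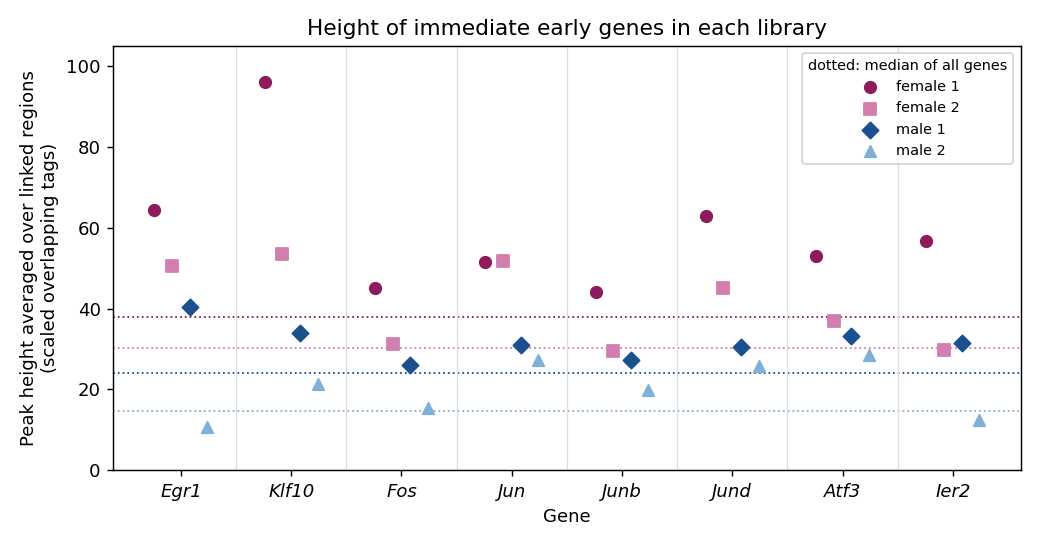
Height of each gene (y axis, scaled overlapping tags averaged over its regions) in the 4 libraries, with dotted lines at the median of all genes in the library of that colour. Egr1 goes from 64.5 and 50.6 in the females to 10.6 in male 2, below the dotted line of that library, and Ier2 is the gene where a male (31.6) lies above a female (29.9).

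None of the 8 genes was called different between the sexes, although for 7 of 8 each male had a lower value than each female. That order was common: 76.4% of all genes showed it, and 0.35% the opposite. The mean height of Klf10 was 74.7 ± 30.1 (SD, n = 2 as for all means here) in females against 27.6 ± 8.94 in males, 2.71-fold higher in females, and Egr1 57.5 ± 9.86 against 25.6 ± 21.1, 2.25-fold. Ier2 had 43.3 ± 18.9 against 22.0 ± 13.5, Jund 54.1 ± 12.6 against 28.1 ± 3.32, and Jun 51.6 ± 0.204 against 29.1 ± 2.78. Fos had 38.1 ± 9.73 against 20.8 ± 7.59, Junb 36.8 ± 10.2 against 23.6 ± 5.31, and Atf3 45.0 ± 11.3 against 30.9 ± 3.24, 1.46-fold higher in females. The gap between the lower female and the higher male was 2.26 for Junb, 3.77 for Atf3, 5.08 for Fos and 19.5 for Klf10. Each of these was less than the SD within the females. For Egr1 the gap was 10.1, less than the SD within the males. It was 14.8 for Jund and 20.4 for Jun, more than the SD within either sex.

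On the scale of log2(height + 9), on which changes of low genes are understated, the difference of males minus females was -1.17 (SE 0.411) for Klf10, -1.09 (SE 0.405) for Egr1, -0.77 (SE 0.395) for Ier2, -0.76 (SE 0.408) for Jund, -0.67 (SE 0.408) for Jun, -0.67 (SE 0.391) for Fos, -0.48 (SE 0.394) for Junb and -0.42 (SE 0.406) for Atf3. The limma test over all genes with Benjamini-Hochberg adjustment called 0 of 8 lower (0.592% of all genes, 71) and 0 of 8 higher (0.0%), with adjusted p from 0.0992 for Klf10 to 0.378 for Atf3. At an unadjusted p under 0.05, 3 members (Klf10, Egr1 and Ier2) and 3768 of all genes (31.4%) were lower, and 0 members and 1 of all genes were higher. As the median of all genes was itself -0.63, the members' median of -0.71 lay -0.09 from it. Relative to that median Klf10 lay at -0.54, Egr1 at -0.46, Ier2 at -0.15, Jund at -0.13, Jun and Fos at -0.04, Junb at 0.15 and Atf3 at 0.21. With libraries centred on their medians or quantile normalized, the differences of Junb and Atf3 turned to 0.14 and 0.20, and neither passed. Without male 1 limma called 5 of 8 lower (Egr1, Klf10, Fos, Jund and Ier2) beside 6391 of all genes. Without male 2 the difference of Egr1 was -0.42, which lay -0.02 from the middle of the table, so that its departure from other genes rested on male 2. With 2 libraries a sex, no exact two-sided permutation p under 0.33 is possible.

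**Figure D5:**
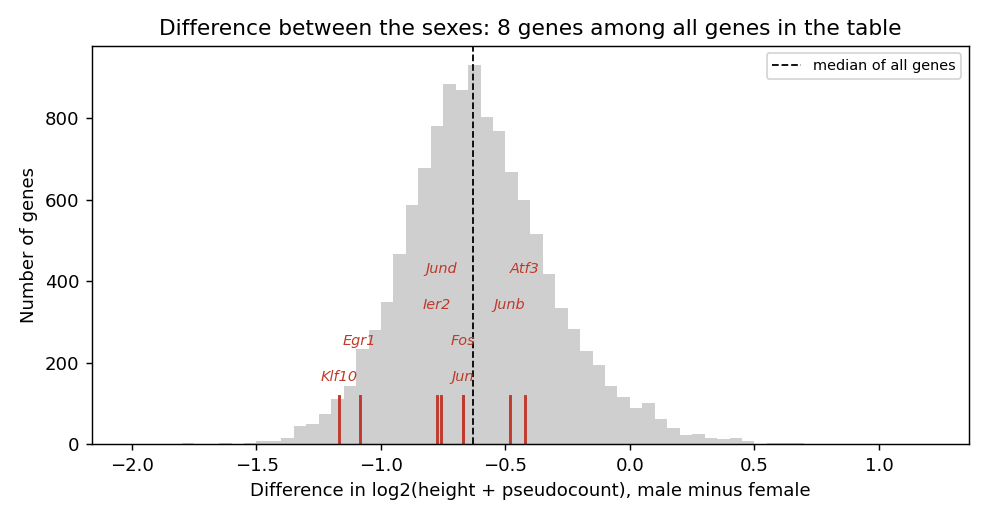
Number of genes (y axis) by difference in log2(height + 9), male minus female (x axis), for all 11993 genes; red ticks mark the 8 genes and the dashed line the median of all genes at -0.63. Klf10 (-1.17) and Egr1 (-1.09) lie in the left flank, Fos and Jun (-0.67) next to the median, and Junb (-0.48) and Atf3 (-0.42) to its right.

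Genes with the most similar heights were sought over the 4 libraries, by distance on the log2 scale. They were Drg1 for Egr1 (distance 0.113, with heights of 61.0, 51.8, 39.6 and 11.7), Trim2 for Klf10 (0.238), Lgals9 for Fos (0.040), Snn for Jun (0.071), Sgta for Junb (0.073), Rnf207 for Jund (0.074), Rassf1 for Atf3 (0.096) and Wipi2 for Ier2 (0.052). Within a distance of 0.25 lay 412 genes for Fos and 264 for Junb, and 15 for Egr1 and 2 for Klf10. The profiles of Fos and Junb were thus common in the table, and those of Egr1 and Klf10 were rare.

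Among related genes none was called in either direction. Of 13 other AP-1 and ATF genes 7 were in the table, and their median lay at 0.05 relative to all genes. Atf4, a factor of the stress response, had 46.1 ± 14.0 in females and 15.7 ± 9.76 in males (-0.56 relative to all genes), from a region beyond the gene that was linked also to Rps19bp1. Atf5, Jdp2 and Fosl2, a Fos relative, lay at 0.03, 0.05 and 0.03. Of 15 EGR, NAB and KLF genes 10 were in the table, with a median of -0.12. Klf3 had 51.7 ± 8.85 against 22.6 ± 13.3 (-0.37), and Klf13, Klf11 and Klf7 lay at -0.26, -0.20 and -0.15. Egr2, Egr3 and Egr4 were not in the table.

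Of 41 other immediate early genes 34 were in the table, with a median of 0.12 relative to all genes. Rhob, a small GTPase, had 87.3 ± 9.50 in females and 33.9 ± 20.0 in males (-0.62), and Cebpd, a factor of early adipocyte differentiation, 53.0 ± 15.6 against 21.1 ± 10.1 (-0.43). Myc had 33.4 ± 0.791 against 13.7 ± 0.368, and Plk3, a kinase of the stress response, 34.4 ± 1.31 against 14.4 ± 3.18, both at -0.27. Of 22 upstream regulators 19 were in the table, with a median at that of all genes. The CREB coactivator Crtc1 had 82.8 ± 10.2 against 30.1 ± 11.4 (-0.63), the JNK kinase Mapk9 71.6 ± 17.5 against 30.3 ± 20.1 (-0.49) and Srf 47.9 ± 6.20 against 23.5 ± 12.1 (-0.23), while the kinase Rps6ka3 lay at -0.18. At an unadjusted p under 0.05, at which 31.4% of all genes were lower, 1 of 7, 5 of 10, 7 of 34 and 6 of 19 measured genes of the 4 lists were lower, and limma's smallest adjusted p was 0.0941, for Atf4.

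Markers of other cell types of the pad were mostly lower in males on the deposited scale, as most genes were. Several, such as Cd68, Cd79a and Mb, had regions linked also to other genes. St14, the 1 of 6 mammary epithelium markers in the table, had heights of 22.0, 15.6, 2.12 and 1.47, and limma called it lower (adjusted p = 0.0283). Of 4 Schwann cell markers 3 were in the table, with summed heights of 85.5, 71.5, 54.1 and 25, and Erbb3 was called lower (adjusted p = 0.0436). Neither call held with centred libraries, with quantile normalization, with heights divided by the library's step, without female 1 or without male 2, and that of Erbb3 was also lost without female 2 and with a pseudocount of 1. With genes of low mean height left out (up to the 25th percentile), limma called 0 genes, and St14 and Erbb3 had no result. Over the other 13 alternatives limma's adjusted p ranged from 0.000255 to 0.638 for St14 and from 0.000218 to 0.638 for Erbb3. No marker of adipocytes, progenitors (1 of 4 in the table), endothelium (3 of 5), mural cells (2 of 4), macrophages (1 of 5), T and B cells (1 of 4) or skeletal muscle (1 of 4) was called. In whole tissue a change in the share of cells of a type and a change within those cells cannot be told apart, and the part of cell makeup in the members' heights was not tested.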

How the data were processed

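Chromatin accessibility was measured in 4 libraries of mouse subcutaneous white fat, 2 female and 2 male. Per the submitters' processing notes, the tools were BWA and MACS2 2.1.0 and the build mm10. Filters, duplicate removal and any Tn5 shift were not given in the sources read. The authors called peaks in each library and joined them into merged regions, per the file headers. The deposited signal is the peak height averaged over the regions linked to a gene, with other deposited columns for peak presence and numbers of regions. Heights of genes with 1 region were whole multiples of a step per library, within 2% of a step: 1.0, 0.822, 0.707 and 0.734 in female 1, female 2, male 1 and male 2. The basis of this scaling is unknown. Coverage is not a count of reads, so no count test was used, and the depth is unknown beyond the overlapping tags. No exon or UTR annotation was used.

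Log2(height + 9) was compared between the sexes with limma 3.58.1 (R 4.3.3, with trend, no replicate block) on all 11993 genes; 9 is the rounded-up 5th percentile of all positive heights, and each gene had a height above 0 in at least 2 libraries. Benjamini-Hochberg adjusted p under 0.05 was the threshold. The fit was tested on simulated data with 200 changed genes. Their spread was that within sexes, pooled over genes after shifts of whole libraries were removed. The simulated libraries held no such shifts, unlike the deposited heights, so the behaviour of the fit under them was not tested. Single region heights were solved as a linear system from genes that share regions. Limits for regions without a peak subtract called summits from the sum of heights, since heights of genes with 1 region were never below their summit. Percentiles are ranks within a library. Positions are mm10, counted from 1 for regions and as deposited for genes. The members and lists were chosen with earlier results of these data known. By rule all members, genes sharing their regions, up to 4 genes with the smallest p per related list, and the nearest gene of each member were named; the last left out predicted, microRNA and pseudogene entries. Alternatives covered pseudocounts of 1 and 36, filters, scaling, the replicate block, limma without trend, distinct region sets counted a single time, peak overlap and height, and each library left out. Python 3.11.15, pandas 2.3.3, numpy 2.4.6 and matplotlib 3.10.9 were used.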

Additional observations from a re-analysis of the deposited data

How the results depend on the processing

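Of 112 alternative values for the 8 genes, 96 kept their direction and side of the threshold, 12 passed it and 4 turned direction. The turned values were those of Junb (0.135 with libraries centred on their medians, 0.142 with quantile normalization) and Atf3 (0.196 and 0.204). Part of the 96 was fixed in advance. Every gene met the main filter, so the fit without a filter was the main fit again. The replicate block, limma without trend, the 25th percentile filter and distinct region sets leave a member's difference unchanged. In these settings its direction could not turn. Against 71 genes lower in males, limma called 0 with the genes up to the 25th percentile of mean height left out (2736 at an unadjusted p under 0.05), 0 with centred libraries (962) and 0 with quantile normalization (911), 416 without trend, and 4 with heights divided by the library's step, an alternative chosen after seeing the data; leaving out 1 library gave 0 (without male 2, 986 at an unadjusted p under 0.05) to 6391 (without male 1). Genes higher in males numbered 0 to 28 with a library left out. Of the 8 genes, 1 was called without trend (Klf10, limma adjusted p = 0.0439, range over its alternatives 0.0011 to 0.828) and 0 to 5 with a library left out. The members' median difference was -0.71; it was -0.10 with centred libraries, -0.08 with quantile normalization, and -0.922 to -0.41 with a library left out. The number of regions with a peak in all 4 libraries was 3; it was 3 with a stricter overlap, 2 with summits at or above the median of their library, and 3 to 4 with a library left out. With the replicate number as a block limma called 6918 genes lower and 7 higher, and 6 of the 8 genes lower (all but Junb and Atf3). The labels give these numbers without saying that they pair the samples, so they were not taken as pairs. Over genes, same-numbered samples had a correlation of 0.017 in their deviations from the means of their sex. That value cannot show a shift shared by a whole library. Replicate 1 had the higher median height in both sexes (38.0 against 30.2 in females, 24.0 against 14.7 in males). Whether the numbers pair the samples is therefore unknown. Heights of few overlapping tags and 2 libraries per sex limit what differences can be detected.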

Other observations

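Beyond the linked regions, open regions linked to no gene lay within 60 kb of 5 of the members. Near Egr1 a region 26340 bp from its start (chromosome 18, 34887469 to 34887626) had summits of 43.0 in female 1 and 41.9 in female 2 and no called peak in the males. Near Fos a region 59108 bp from its start (chromosome 12, 85532684 to 85533334) had summits of 24.0 in female 1, 22.2 in female 2 and 14.0 in male 2. A region 55579 bp from the start of Klf10 (chromosome 15, 38244987 to 38245269) had summits of 25 and 24.7 in the females. The regions near Jun and Atf3 had a peak in a single library each. Whether any of these regions acts on the named gene cannot be read from these data.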
